A study of Mus musculus with 8 samples.

Results

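The rd10 retina was compared with itself 3 days apart, at postnatal day 18 (P18) and at P15, the interval in which this strain begins to lose its rods. The comparison took 4 of the 8 whole-retina libraries of the series, 2 of them rd10 P15 and 2 rd10 P18, and covered all 20457 expressed genes among 57010 gene identifiers. Mice of both ages were homozygous for rd10, a missense allele of Pde6b (a catalytic subunit of the phosphodiesterase in rods), and the labels name no treatment for either. The other 4 libraries, WT at P15 (littermate controls in the study's methods) and rd10 at P21, entered the fit only to estimate the spread between libraries and are given beside some values. Each library came from the poly(A) RNA of 1 whole retina. No WT library at P18 was used here, so degeneration and 3 days of normal maturation cannot be told apart. The labels call the samples of a group biological replicates without saying whether they came from separate litters, and p-values cover only the spread between these libraries.

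In the rd10 retina the rod phosphodiesterase works poorly, rods die first and cones follow. Muller glia, the radial glia that span the retina, answer photoreceptor injury with a reactive state in which the intermediate filament gene Gfap is switched on, and cytokines of the LIF and CNTF family act on them through gp130, JAK kinases and STAT3. Microglia, the resident phagocytes, leave their homeostatic state and move to the layer of dying photoreceptors, and an activated state known from neurodegeneration is called disease-associated microglia (DAM).

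The 8 libraries held 28076947 to 33724562 counts. The 2 P18 libraries stood further apart than the 2 P15 libraries: the chi-square of their counts per gene was 104 at P18 and 24.6 at P15. They also differed in sex-linked genes, since 4 Y-linked genes together had 6011 counts in P18 replicate 1 and 19 in replicate 2, and Xist, the X-inactivation RNA, had 44 and 77008. Both P15 libraries were of the first kind, with 5530 and 6054 Y-linked counts and 79 and 89 Xist counts. Both WT P15 libraries were of the second kind, with 4 and 12 Y-linked counts and 30688 and 26338 Xist counts, so wherever WT values are set beside rd10 P15 values genotype and sex cannot be told apart. None of the called genes lay on X or Y, where 681 genes were tested. This says nothing on sex, because genes that differ between the P18 libraries in this way could hardly be called. Xist, for example, had a log2 fold change of 8.75 with a standard error of 4.53. The rod marker Gnat1 had 6491 to 8362 CPM (counts scaled to a fixed library total with TMM factors) in the 4 libraries. Lens genes were low, with sums of 8.59 and 4.90 CPM at P15 and 16.4 and 10.3 at P18. Of 8 tested, 3 were higher without overlap, where 21.9% of all genes were. Of the 8, 2 had no count in either rd10 P15 library and could not have been lower. Red blood cell genes overlapped between ages, but all 5 were higher in P18 replicate 1 than in replicate 2. Their sums were 160 and 56.8 CPM at P18 and 67.1 and 84.6 at P15.

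Between P15 and P18, 107 genes rose and 14 fell, and among the risers were genes of reactive Muller glia, of the STAT3 pathway, metallothioneins, complement and activated microglia. A gene was called when its Benjamini-Hochberg adjusted p in edgeR's quasi-likelihood test was under 0.05 and its log2 fold change was beyond 1 in size, which held for 0.591% of the genes tested (0.523% higher and 0.0684% lower). In this fit changes were lopsided in size as well as in number: 68 of the 107 risers exceeded 4-fold and 22 exceeded 16-fold, whereas 5 of the 14 falls exceeded 4-fold. The excess of rises was not stable, since without P18 replicate 2, which leaves a lone P18 library, more genes were called lower than higher. Across all genes tested the log2 fold change had a median of 0.01, and an unadjusted p under 0.05 was reached by 2638 genes, 1520 of them higher and 1118 lower. All 121 called genes had P15 and P18 libraries that did not overlap, but so did 21.9% of all genes in the higher and 20.4% in the lower direction. These shares are the background for each count of list members without overlap. Calls lay close to the threshold, with an adjusted p over 0.03 for 72 of the 121. Their number depended on the libraries and the tool: it was 594 with DESeq2, 16 and 24 without P15 replicate 1 and 2, 977 without P18 replicate 2, 80 without WT P15 replicate 2, and 183 and 200 without P21 replicate 1 and 2. Every one of the 121 kept its direction in each of these fits. Because none of them overlapped between ages, a change of sign was hardly possible, so this does not measure stability.

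**Figure D1:**
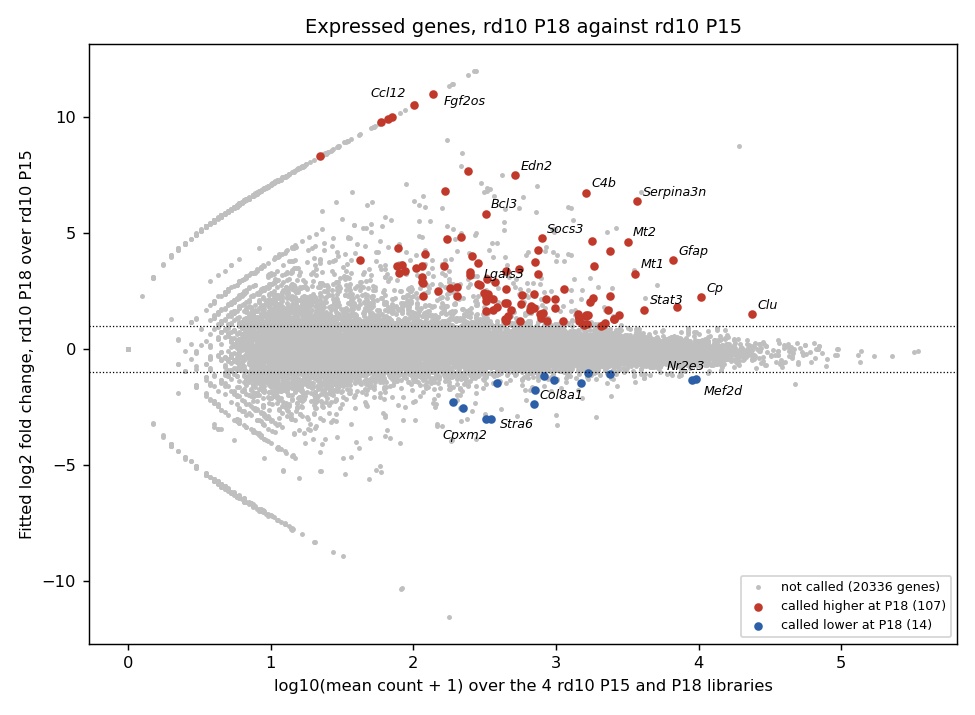
Fitted log2 fold change, rd10 P18 over rd10 P15 (vertical axis), against the mean count over the 4 libraries on a log10 scale (horizontal axis), 1 point a gene. Red points are the 107 genes called higher and blue points the 14 called lower, and dotted lines mark a log2 fold change of 1 in either direction. Red points reach far above the line over a wide range of abundance, and arcs of grey points at the edges are genes with almost no counts at 1 of the ages.

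Reactive Muller glia genes were higher throughout. Like the other lists here, this one was chosen with earlier results of these data known. Its direction is therefore not independent evidence. All 14 tested members of this list had higher values in both P18 libraries than in both P15 libraries, 5 were called (2 without P15 replicate 1 or without P15 replicate 2, and 8 without P18 replicate 2), and the list's median log2 fold change was 2.45. Their summed level went from 468 and 400 to 2194 and 2195 CPM, so that the 2 P18 libraries were nearly identical in this respect; at P21 the sums were 1086 and 855. Gfap, the intermediate filament of reactive glia, rose from 28.1 and 25.03 CPM at P15 to 363 and 399 at P18 (log2 fold change 3.84 ± 0.23 SE, adjusted p = 0.000588, edgeR). Serpina3n, a secreted protease inhibitor induced in reactive astrocytes, rose from 2.07 and 3.42 to 212 and 241 CPM (6.37 ± 0.53, adjusted p = 0.00919). Cebpd, a transcription factor of the acute phase response, rose from 6.87 and 7.93 to 170 and 106 CPM (4.22 ± 0.27, adjusted p = 0.000758). For each of these both P18 libraries stood far above both P15 libraries. The copper-carrying ferroxidase Cp rose from 115 and 113 to 516 and 551 CPM (2.23 ± 0.20, adjusted p = 0.00347), and the hyaluronan receptor Cd44 from 13.4 and 9.06 to 39.6 and 60.1 CPM (2.15 ± 0.29, adjusted p = 0.0259). Cebpd shares exon sequence with Spidr, and Cp with Hps3, so reads of these pairs may have been split; Spidr itself had 3.98 and 4.27 CPM at P15 against 16.5 and 20.2 at P18.

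Members that missed the adjusted threshold included large differences. Lcn2, the iron-siderophore carrier lipocalin 2, had 2.23 and 2.19 CPM at P15 and 269 and 211 at P18 (log2 fold change 6.76 ± 0.89, adjusted p = 0.0501). Its P21 libraries, at 50.4 and 11.9 CPM, lay far apart. Vim, a filament that Muller glia carry at rest, had 212 and 157 CPM against 355 and 338 (0.91 ± 0.23, adjusted p = 0.167). Homeostatic Muller glia genes did not move with the reactive ones: none of 12 was called by edgeR or DESeq2 (3 had an unadjusted p under 0.05), the median was 0.04, and the list was split into 6 positive and 6 negative values, where 51% of all genes were positive. Glul, the glutamine synthetase of these cells, had 2570 and 2164 CPM at P15 and 1814 and 1847 at P18 (-0.37 ± 0.14, adjusted p = 0.315), and Rlbp1, their retinaldehyde-binding protein, had 426 and 346 against 294 and 271 CPM (-0.45 ± 0.15, adjusted p = 0.266).

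STAT3 pathway genes and the endothelin ligand Edn2 rose with them. Of 26 tested members of the cytokine, endothelin and FGF list, 5 were called, all higher, and the median of the list was 0.53; without P15 replicate 1 or 2 the count was 3, and without P18 replicate 2 it was 9. Edn2, a vasoactive peptide made by stressed photoreceptors, rose from 0.19 and 0.14 CPM to 34.4 and 28.01 (log2 fold change 7.51 ± 0.53, adjusted p = 0.00116, edgeR); WT retina at P15 had 1.85 and 4.44 CPM, and P21 retina 27.5 and 21.4. Socs3, the feedback inhibitor of JAK-STAT signaling, rose from 1.94 and 1.48 to 51.6 and 42.7 CPM (4.78 ± 0.31, adjusted p = 0.000758). Bcl3, a nuclear partner of NF-kappaB, rose from 0.38 and 0.28 to 19.9 and 18.7 CPM (5.84 ± 0.63, adjusted p = 0.0113), and both genes had lower values again at P21, at 12.3 and 7.83 CPM for Socs3 and 4.60 and 4.62 CPM for Bcl3. Stat3 itself rose from 61.0 and 62.1 to 194 and 205 CPM (1.70 ± 0.12, adjusted p = 0.00116), and Osmr, the oncostatin M receptor, from 9.04 and 10.5 to 42.1 and 44.2 CPM (2.15 ± 0.26, adjusted p = 0.0167). No P18 library overlapped a P15 library for these 5 genes, as was so for all 121 called genes.

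The shared signaling chain showed smaller differences. The receptor subunit gp130, encoded by Il6st, had 136 and 125 CPM at P15 and 134 and 216 at P18, and the kinase Jak1 had 202 and 193 against 162 and 193, so that both overlapped between ages. Lifr, the LIF receptor, overlapped as well, with 94.2 and 90.9 against 82.4 and 94.4 CPM. Among ligands, which were looked at after their values were seen, Lif had 0.60 and 0.11 CPM at P15 and 4.92 and 9.14 at P18 (log2 fold change 4.27 ± 0.81, adjusted p = 0.0681, edgeR), and Cntf had 3.79 and 2.54 against 15.5 and 12.2 CPM (2.13 ± 0.37, adjusted p = 0.0555). Fgf2, a photoreceptor survival factor, gave no uniform reading: it had 11.8 and 15.3 CPM at P15, 146 in P18 replicate 1 and 12.9 in P18 replicate 2, then 135 and 140 at P21. Fgf2os, a noncoding transcript of the opposite strand at that locus, had no count in either rd10 P15 library and 8.44 and 8.19 CPM at P18. This was at least 166-fold higher against a floor of 3 counts over the P15 group (adjusted p = 0.00266, edgeR). WT retina at P15 had 0.96 and 1.81 CPM of Fgf2os, so the rd10 P15 level was below WT. Fgf2os did not share the split of Fgf2 between the P18 replicates. The library protocol as described marks no strand.

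RefSeq promoters (GRCm38.p6, 250 bases before to 50 after the start) were searched on both strands for TTCNNNGAA, the core letters that STAT factors bind. Of the 10 called genes in these 2 lists, 9 had a promoter in the table and 2 held the motif, Socs3 and Gfap, whose windows are printed for that reason. Capitals mark the motif, which begins 154 bases before the start in Socs3 (chr11:117969317-117969616, minus strand) and 2 bases before it in Gfap (chr11:102897151-102897450, minus strand).
Socs3: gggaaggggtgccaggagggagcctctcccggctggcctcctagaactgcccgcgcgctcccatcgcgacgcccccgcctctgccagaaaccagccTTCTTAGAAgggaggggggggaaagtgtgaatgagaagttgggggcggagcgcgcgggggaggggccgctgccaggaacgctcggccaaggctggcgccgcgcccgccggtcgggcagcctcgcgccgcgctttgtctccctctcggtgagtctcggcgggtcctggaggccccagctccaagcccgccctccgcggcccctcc
Gfap: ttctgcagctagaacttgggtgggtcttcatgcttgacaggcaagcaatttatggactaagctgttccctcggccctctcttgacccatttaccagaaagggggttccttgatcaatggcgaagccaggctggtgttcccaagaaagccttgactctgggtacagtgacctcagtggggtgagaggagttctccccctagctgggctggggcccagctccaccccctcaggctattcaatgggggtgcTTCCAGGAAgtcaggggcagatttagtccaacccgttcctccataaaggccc
The same letters stood in 8.2% of the promoters of tested genes and in 14 of 79 promoters of called risers (17.7%). TGANTCA, the AP-1 letters, stood in 6.44% and 12.7% of these promoters and in Cp and Osmr within the lists, and TAATCC, the letters bound by the photoreceptor factor CRX, in 7.4% and 7.59% and in none of the 9. A match of letters is a description of the window and no evidence of binding.

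The metallothionein genes Mt2 and Mt1 had the smallest adjusted p of all genes tested. Mt2 rose from 6.87 and 8.21 to 192 and 184 CPM (log2 fold change 4.64 ± 0.21, adjusted p = 0.000193, edgeR) and Mt1 from 21.7 and 20.5 to 203 and 199 CPM (3.25 ± 0.17, adjusted p = 0.000287). Both encode small zinc- and copper-binding proteins. Hmox1, the heme-degrading enzyme of the oxidative stress response, rose from 1.53 and 0.95 to 14.8 and 17.9 CPM (3.71 ± 0.61, adjusted p = 0.0485). These were the 3 calls among 12 metallothionein and antioxidant genes, whose median was 0.31; the thioredoxin reductase Txnrd1 had 57.8 and 53.9 CPM at P15 and 67.3 and 67.9 at P18 (0.28 ± 0.14, adjusted p = 0.441). In the unfolded protein and integrated stress response list 1 of 12 was called, Sdf2l1, an endoplasmic reticulum chaperone cofactor, which rose from 5.66 and 5.22 to 23.8 and 19.8 CPM (2.00 ± 0.22, adjusted p = 0.0113). The chaperone Hspa5 had 391.9 and 306.6 against 653 and 567 CPM (0.81 ± 0.17, adjusted p = 0.0969), and the median of that list was 0.38. No member was called without P15 replicate 1 or without P15 replicate 2, and 2 were without P18 replicate 2. Of the metallothionein and antioxidant list 2 were called without any 1 of the P15 and WT libraries or without P18 replicate 1.

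Immediate early genes leaned upward with 2 of 18 called and a median of 0.62. Neither call was made without P15 replicate 1 or without P15 replicate 2, and 4 genes were called without P18 replicate 2. The transcription factor genes Atf3 and Junb rose, Atf3 from 2.13 and 3.35 to 20.9 and 20.2 CPM (log2 fold change 2.90 ± 0.35, adjusted p = 0.0167, edgeR) and Junb from 19.0 and 21.2 to 104 and 81.8 CPM (2.21 ± 0.22, adjusted p = 0.0065). Egr1 was the exception, with 425 and 271 CPM at P15 and 279 and 273 at P18, values that overlapped. It already exceeded the 58.6 and 56.2 CPM of WT retina at P15.

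**Figure D2:**
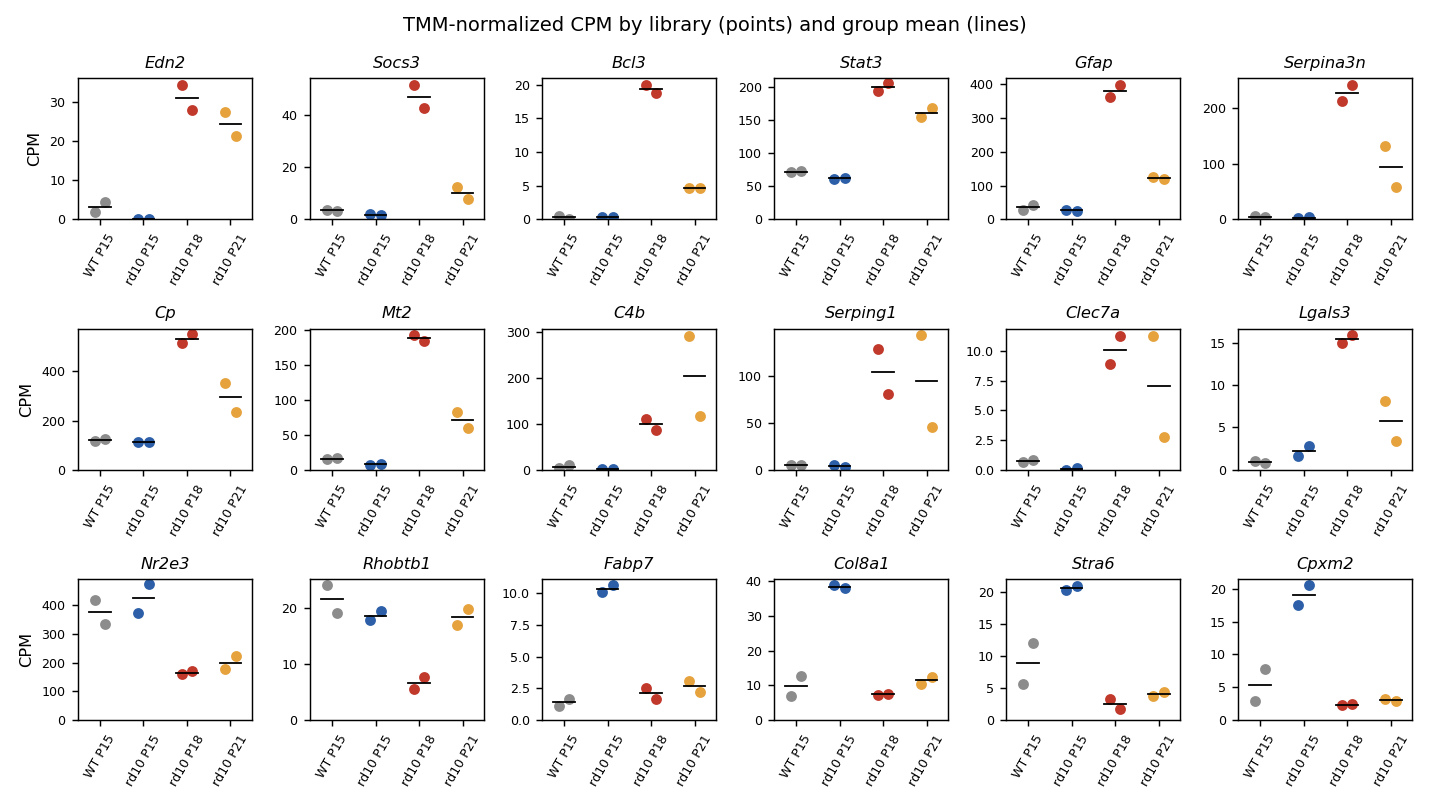
TMM-normalized CPM of 18 called genes in each of the 8 libraries, with points for libraries and black lines for the mean of the 2 libraries of a group; every vertical axis starts at 0. In the upper 2 rows the red P18 points sit well above the blue P15 points, as for Mt2 at 192 and 184 against 6.87 and 8.21 CPM, and in the bottom row they sit below, as for Col8a1 at 7.37 and 7.47 against 39.0 and 38.0 CPM.

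Complement genes that rose were a component, a receptor and a pair of regulators. Of 16 tested, 4 were called, all higher, 13 did not overlap in the higher direction, and the median was 2.55. Of the 16, 2 had no count in either rd10 P15 library and could not have been lower. No member was called without P15 replicate 1 or without P15 replicate 2 and 1 without P18 replicate 1 or either WT library, while 8 were called without either P21 library and DESeq2 called 12. C4b, a component of the classical and lectin pathways, rose from 1.05 and 0.78 to 111 and 87.1 CPM (log2 fold change 6.75 ± 0.78, adjusted p = 0.0378, edgeR). It stood at 292 and 117 CPM at P21 and at 3.18 and 9.29 CPM in WT retina at P15. Serping1, the inhibitor of C1, rose from 4.81 and 3.42 to 128 and 80.6 CPM (4.66 ± 0.62, adjusted p = 0.0473), and Cfi, the protease that degrades C3b and C4b, from 0.70 and 1.06 to 5.07 and 7.53 CPM (2.84 ± 0.44, adjusted p = 0.0407). C3ar1, the receptor for the C3a fragment on myeloid cells, rose from 0.32 and 0.42 to 8.86 and 11.4 CPM (4.76 ± 0.72, adjusted p = 0.0382). C3, the central component, had 0.80 and 1.34 against 59.1 and 88.4 CPM and missed the threshold narrowly (6.11 ± 0.84, adjusted p = 0.0504). The microglial C1qc had 8.94 and 8.88 against 44.0 and 35.9 CPM (2.16 ± 0.54, adjusted p = 0.177). The regulator Cd55 had lower values without being called, 1.94 and 1.90 against 0.87 and 1.10 CPM.

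Activated microglia genes were higher in 20 of 21 cases, of which 3 were called, with a median of 1.22. Of the 21, 2 had no count in either rd10 P15 library and could not have been lower. The median was also 1.22 with genes at 0 set to their bound. The study also took up this signature in these samples, so the list is not independent evidence of a direction. Clec7a, the beta-glucan receptor dectin-1, which the annotation marks as a polymorphic pseudogene, rose from 0 and 0.18 to 8.89 and 11.3 CPM (log2 fold change 6.83 ± 1.08, adjusted p = 0.0485, edgeR). Lgals3, the phagocyte lectin galectin-3, rose from 1.62 and 2.75 to 14.97 and 15.91 CPM (2.82 ± 0.47, adjusted p = 0.0492), and the lysosomal tetraspanin Cd63, which other retinal cells also carry, from 52.3 and 37.8 to 153 and 99.2 CPM (1.48 ± 0.24, adjusted p = 0.0485). Trem2, the receptor at the centre of the study, was measured at 1.94 and 2.26 CPM at P15 and 5.13 and 3.25 at P18 (1.00 ± 0.42, adjusted p = 0.368), a difference that did not pass the test. The paper reports increased Lgals3, Itgax, Cd9, Trem2, Apoe and Ctsd in rd10 retina at P18 and P21. It also reports increased Trem2 by qPCR and TREM2 protein staining in microglia of the outer retina. Its methods name wild-type littermates as controls, whereas the reference here is rd10 P15. Among the rd10 genes that the paper lists, only Lgals3 was called here. Ctsd and Apoe, abundant in the retina outside microglia too, had 425 and 425 against 622 and 579 CPM (0.50 ± 0.17, adjusted p = 0.27) and 286 and 330 against 533 and 338 CPM (0.50 ± 0.38, adjusted p = 0.636). The list was sensitive to the tool, since DESeq2 called 13 of its members, and no member was called without P15 replicate 1, without P15 replicate 2 or without P18 replicate 1. Leaving out either WT library gave 1 call, and leaving out P18 replicate 2 or either P21 library gave 6.

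Genes of homeostatic microglia were mostly higher as well. None of 13 was called by edgeR (3 by DESeq2, and 6 had an unadjusted p under 0.05), 9 were higher without overlap and the median was 0.68. Cx3cr1, the fractalkine receptor, had 9.52 and 10.3 CPM at P15 and 20.2 and 26.8 at P18 (log2 fold change 1.24 ± 0.37, adjusted p = 0.216, edgeR). P2ry12, the purinergic receptor of resting microglia, was the member that went the other way without overlap, at 7.86 and 8.07 CPM against 4.42 and 3.75 (-0.96 ± 0.31, adjusted p = 0.254). In whole-retina RNA more cells of a type and more RNA per cell cannot be told apart, and this holds for each cell type list here.

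Of 17 chemokine and adhesion genes, 5 had no count in either P15 library, while others such as Cxcl16, a chemokine also made as a membrane protein, were present at 12.2 and 10.7 CPM. Ccl12, a monocyte-attracting chemokine, had no count at P15 and 8.29 and 3.84 CPM at P18, at least 122-fold higher (adjusted p = 0.0221, edgeR), and was back at 0.57 and 0.21 CPM at P21. It was called together with Itgam, the myeloid integrin CD11b, and the list's median was 3.32. The 2 calls became 0 without P15 replicate 1, 1 without P15 replicate 2, P18 replicate 1 or either WT library, and 3 without P18 replicate 2. Itgam rose from 1.62 and 1.20 to 6.86 and 21.4 CPM (log2 fold change 3.32 ± 0.56, adjusted p = 0.0492), but it shares exons with Gm49368; the 2 together had 5.41 and 4.55 CPM at P15 and 13.8 and 21.4 at P18, so that the step was smaller for the pair. Monocyte and granulocyte markers had very low levels, summing to 0.67 and 0.63 CPM at P15 against 24.7 and 9.55 at P18. None of the 8 tested was called by edgeR (1 by DESeq2, and 2 had an unadjusted p under 0.05). All 8 were higher without overlap, but 4, among them Ms4a4c, Plac8 and Ly6c2, had no count at rd10 P15. Those 4 passed the filter on low counts through other libraries and could not have been lower. The filter removed S100a8 and S100a9, with 51 and 14 counts in P18 replicate 1 and 0 in replicate 2. The median of that list was 6.25, or 4.43 with the genes at 0 set to their bound. The part of such cells in the chemokine, complement and interferon values was not tested.

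Interferon-response and antigen-presentation genes were higher in every member, while the P18 replicates disagreed on how far. All 22 interferon genes and all 16 antigen-presentation genes were higher in both P18 libraries than in both P15 libraries. Their medians were 4.16 and 3.53. Of the antigen-presentation genes 1, Ciita, had no count in either rd10 P15 library and could not have been lower. Of the interferon genes 1 was called, Irf1, a transcription factor induced by interferons, which rose from 2.80 and 2.89 to 45.5 and 16.1 CPM (log2 fold change 3.43 ± 0.51, adjusted p = 0.0406, edgeR); no antigen-presentation gene was, although all 16 had an unadjusted p under 0.05. P18 replicate 1 exceeded replicate 2 for all 22 interferon genes, with a median ratio of 2.88, against 10065 of 20457 genes overall. Ifit3, an interferon-induced antiviral gene, had 4.39 and 3.88 CPM at P15 and 243 and 66.4 at P18 (5.22 ± 1.17, adjusted p = 0.179). B2m, the light chain of MHC class I, had 18.7 and 18.2 against 279 and 117 CPM (3.43 ± 0.78, adjusted p = 0.175). The P21 replicates were split the same way, with summed interferon levels of 1915 and 376 CPM, after 136 and 136 at P15 and 2149 and 881 at P18. At both ages the higher library was the one with Y-linked counts, while the 2 P15 libraries, both with such counts, were low. With a term for Y-linked counts in the fit, 16 interferon and 10 antigen-presentation genes were called, and DESeq2 called 19 and 12. Without P21 replicate 1 the counts were 13 and 7, and without P21 replicate 2 they were 11 and 7; without P18 replicate 1 they were 1 and 0, and without P18 replicate 2 they were 1 and 4. Both counts were 0 without either P15 library or either WT library. Sex and any other difference between these animals cannot be told apart.

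**Figure D3:**
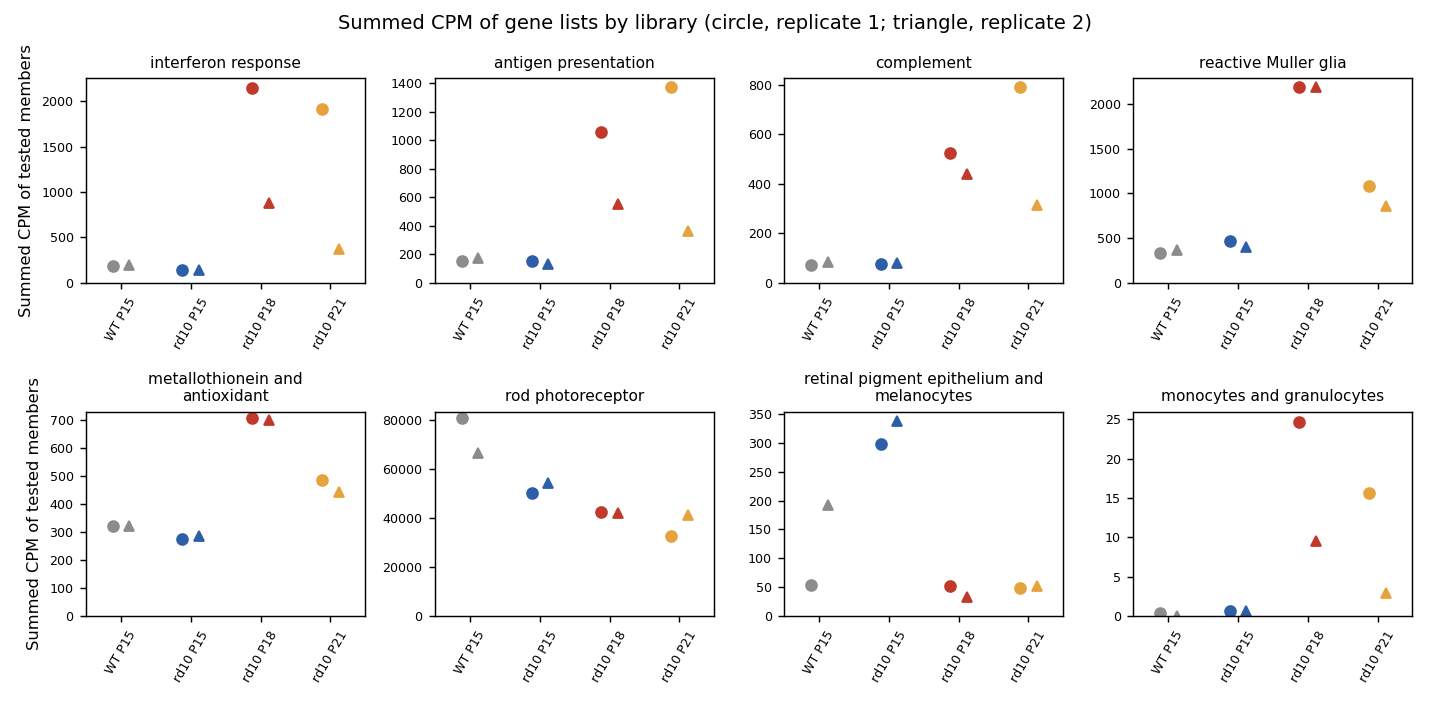
Summed CPM of the tested members of 8 gene lists in each library, with circles for replicate 1 and triangles for replicate 2; every vertical axis starts at 0. Interferon sums separate the P18 replicates (2149 and 881 CPM) and the P21 replicates (1915 and 376 CPM), whereas the reactive Muller glia sums of the P18 replicates coincide (2194 and 2195 CPM).

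Rod genes pointed down by a small amount. Of 25 rod genes 21 had a negative log2 fold change and 16 did not overlap in the lower direction, the median was -0.41, and 1 was called by edgeR and by DESeq2, though not without P15 replicate 1, P15 replicate 2 or P18 replicate 1; their summed level was 50200 and 54240 CPM at P15 and 42400 and 42130 at P18. The called gene was Nr2e3, the nuclear receptor that keeps rods from expressing cone genes, which fell from 374 and 474 to 160 and 171 CPM (log2 fold change -1.36 ± 0.18, adjusted p = 0.0268, edgeR). Gnat1, the rod transducin subunit, had 7984 and 8362 against 6635 and 6491 CPM (-0.32 ± 0.14, adjusted p = 0.393). Prph2, a disc rim protein, had 4380 and 4829 against 4238 and 3373 CPM, and the rod arrestin Sag 3142 and 3412 against 2772 and 2627 CPM. Guca1a and Cnga1, chosen after their values were seen, were the 2 rod genes that were higher without overlap, at 119 and 139 against 259 and 196 CPM and at 303 and 318 against 600 and 481 CPM, and neither was called.

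Cone genes did not follow the rod genes. None of 14 was called by edgeR or DESeq2 (4 had an unadjusted p under 0.05), and the median was 0.16. Gnb3, the cone transducin beta subunit, had 305 and 283 CPM at P15 and 594 and 524 at P18, which passed the adjusted p but stayed under the fold threshold (log2 fold change 0.93 ± 0.13, adjusted p = 0.0312, edgeR). Opn1sw, the short-wavelength opsin, had 237 and 265 against 380 and 396 CPM (0.63 ± 0.18, adjusted p = 0.198), and Gnat2, the cone transducin alpha subunit, overlapped at 89.1 and 104 against 121 and 102 CPM. Inner retinal lists were flat or slightly lower, with no call by edgeR or DESeq2 among 14 bipolar genes (median -0.08), 13 amacrine and horizontal genes (-0.13), 12 ganglion cell genes (-0.35) and 12 endothelial and pericyte genes (-0.27). An unadjusted p under 0.05 was reached by 2, 1, 5 and 4 of them, and without P18 replicate 2 the calls were 1, 0, 1 and 1, all lower. Ganglion cell neurofilaments were lower without overlap but not called, as for Nefm with 552 and 590 against 397 and 421 CPM (-0.48 ± 0.12, adjusted p = 0.161).

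**Figure D4:**
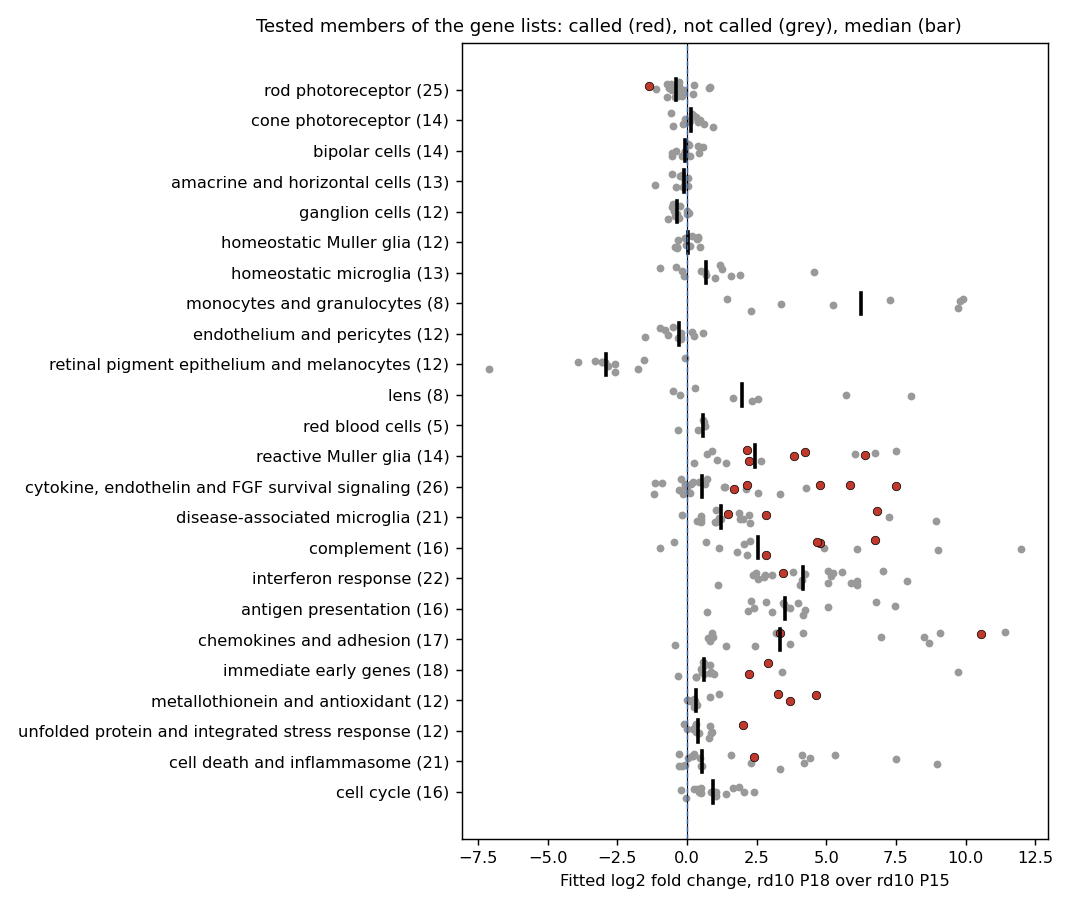
Fitted log2 fold change, rd10 P18 over rd10 P15, of the tested members of each gene list, with the number tested in brackets; red points are called genes, grey points are not called, black bars are list medians, and the dashed line is the median of all genes (0.01). Medians of the interferon (4.16) and antigen-presentation (3.53) lists stand far right with 1 and 0 called genes, reactive Muller glia (2.45) with 5, and the pigment epithelium list (-2.90) far left with none.

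The 14 genes that fell were few and mixed. Stra6, the receptor for retinol-binding protein in pigment epithelium, fell from 20.4 and 21.01 to 3.31 and 1.80 CPM (log2 fold change -3.02 ± 0.43, adjusted p = 0.0342, edgeR), and the carboxypeptidase-like gene Cpxm2 from 17.6 and 20.5 to 2.27 and 2.39 CPM (-3.03 ± 0.44, adjusted p = 0.0347). The matrix genes Col8a1 and Col4a4, chains of collagens VIII and IV, fell from 39.0 and 38.0 to 7.37 and 7.47 CPM (-2.37 ± 0.28, adjusted p = 0.0167) and from 13.1 and 12.02 to 2.39 and 1.92 CPM (-2.54 ± 0.30, adjusted p = 0.0167). Fabp7, a fatty acid-binding protein of glial progenitors, fell from 10.1 and 10.6 to 2.57 and 1.70 CPM (-2.27 ± 0.39, adjusted p = 0.0495). WT retina at P15 was also below the rd10 P15 level for these 5 genes, only slightly so for Col4a4 (log2 fold change of rd10 P15 over WT 0.27). That difference had an adjusted p of 0.0457 for Col8a1 and 0.0408 for Fabp7, against 0.265, 0.119 and 0.775 for Stra6, Cpxm2 and Col4a4 (edgeR). WT values were 5.66 and 12.1 CPM for Stra6, 2.96 and 7.77 for Cpxm2, 7.10 and 12.8 for Col8a1, 9.24 and 11.6 for Col4a4 and 1.15 and 1.65 for Fabp7. Markers of pigment epithelium and melanocytes moved with them: all 12 were lower, 11 without overlap, with a median of -2.90 and no call by edgeR (9 by DESeq2, and 10 with an unadjusted p under 0.05), and their summed level was 297 and 338 CPM at P15 against 52.1 and 33.5 at P18, with 53.4 and 192 in WT retina. That edgeR called none depended on the WT libraries in the fit: it called 6 and 7 without WT P15 replicate 1 and 2, 6 with only the 6 rd10 libraries and 3 with only the 4 libraries compared, and 1 and 2 without P18 replicate 1 and 2. The most abundant, Ttr, which encodes transthyretin, had 99.4 and 124 CPM at P15 and 18.9 and 9.92 at P18 (-2.96 ± 0.68, adjusted p = 0.174). The part of adhering pigment epithelium in the falls was not tested.

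Other falls lay outside that set. Mef2d, a transcription factor gene active in photoreceptors, had 442 and 458 CPM at P15, 139 and 225 at P18 and 458 and 499 at P21 (log2 fold change from P15 to P18 -1.30 ± 0.21, adjusted p = 0.0466, edgeR), so that P18 was the low point of the 3 ages. Rhobtb1 followed the same course, with 17.9 and 19.6, then 5.61 and 7.75, then 17.1 and 19.9 CPM (-1.49 ± 0.23, adjusted p = 0.043). The step from P18 to P21 did not pass the test for either gene (adjusted p = 0.144 for Mef2d and 0.178 for Rhobtb1, edgeR). WT retina at P15 had 235 and 236 CPM for Mef2d, below rd10 P15, and 24.3 and 19.2 CPM for Rhobtb1. The kinesin gene Kif19a fell from 31.4 and 40.5 to 12.9 and 8.10 CPM (-1.78 ± 0.27, adjusted p = 0.0378), with 8.61 and 10.7 CPM in WT retina. E130310I04Rik, a transcript overlapping Mylk, fell from 63.5 and 80.5 to 27.5 and 24.6 CPM (-1.47 ± 0.21, adjusted p = 0.0342). Pcdhgb6 fell from 46.3 and 45.0 to 14.3 and 21.3 CPM (-1.36 ± 0.20, adjusted p = 0.0374), with the reservation that the genes of the protocadherin gamma cluster share exons.

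Among the largest rises, a group started from 0. Ch25h, which makes the antiviral oxysterol 25-hydroxycholesterol, Isg20, an interferon-stimulated exonuclease, and Ms4a6d, a myeloid membrane protein, had no count in either P15 library and reached 4.80 and 3.21, 5.28 and 3.18, and 4.53 and 2.62 CPM at P18. These were at least 80.3-, 84.9- and 71.7-fold higher, with adjusted p of 0.0353, 0.0492 and 0.0466 (edgeR). In WT retina at P15 Isg20 had 0.92 and 0.36 CPM, and Ch25h and Ms4a6d had no count. Lad1, an anchoring filament protein of epithelia, rose from 0.13 and 0 to 13.7 and 15.6 CPM (log2 fold change 7.70 ± 0.85, adjusted p = 0.0134), and Tnnt2, cardiac troponin T, from 0.16 and 0.74 to 9.01 and 16.7 CPM (4.85 ± 0.65, adjusted p = 0.0259). Both had lower values at rd10 P15 than in WT retina of that age, where Lad1 had 0.30 and 1.04 and Tnnt2 2.55 and 2.78 CPM. That difference did not pass the test for either gene (adjusted p = 0.194 for Lad1 and 0.131 for Tnnt2, edgeR).

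Cell death and cell cycle genes were mostly not called. Of 21 cell death and inflammasome genes 1 was called, Tnfrsf1a, the TNF receptor, which rose from 6.87 and 6.98 to 38.3 and 34.3 CPM (log2 fold change 2.39 ± 0.22, adjusted p = 0.00482, edgeR), and the list's median was 0.55; the count was 0 without P15 replicate 1 or without P15 replicate 2 and 3 without P18 replicate 2. The survival gene Mcl1 had 110 and 95.4 against 169 and 132 CPM (0.55 ± 0.16, adjusted p = 0.194). By edgeR no gene was called among 16 of the cell cycle (median 0.92; 1 by DESeq2), 13 of the mitochondrial genome (-0.02), 5 of red blood cells (0.58) or 8 of lens (1.99), with an unadjusted p under 0.05 for 4, 2, 0 and 2 of them, and of which the last reached at most 6.35 CPM for the crystallin gene Crybb3 in a P18 library. Without P18 replicate 2 edgeR called 1 cell cycle gene, 1 mitochondrial gene and 3 red blood cell genes.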

How the data were processed

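Counts of 8 whole-retina libraries (WT P15, rd10 P15, P18 and P21, 2 each) were deposited by the authors as raw whole numbers per gene. Per the labels, reads were aligned with HISAT2; counter, genome build and annotation were not given in the sources used here. Of 57010 identifiers, 52029 were named with GENCODE M21, and no other per-sample column was used. Genes passing edgeR's filterByExpr with a minimum count of 10 (20457) were fitted with edgeR 4.0.16 (R 4.3.3; TMM, robust quasi-likelihood, 4 groups, 4 residual degrees of freedom), with rd10 P18 minus rd10 P15 as contrast. DESeq2 1.42.0, used by the authors in another version, served as an alternative; it gave no adjusted p for 397 genes. Scripts were tested on simulated data. SE is the size of the log2 fold change over the root of F. Depth was 28076947 to 33724562 counts, and floors of 3 counts cover counting error only. Genes named were the 15 largest rises and 10 largest falls among called genes without overlap and with a mean count of at least 50, the called members of 26 lists, and up to 4 members per list by level. Members and lists were chosen with earlier results of these data known. Some genes are not reported here.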

Additional observations from a re-analysis of the deposited data

How the results depend on the processing

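The number of called genes moved between the 16 alternative fits. The 121 kept their direction in all of them, which their lack of overlap between ages made almost certain beforehand. DESeq2 called 594 genes (474 higher and 120 lower), all 121 among them. Fitting only the 4 rd10 P15 and P18 libraries gave 74 calls (67 higher, 7 lower), of which 34 were among the 121, and the 6 rd10 libraries gave 68 (53 higher), 53 of them shared. A term for Y-linked counts gave 275 (224 higher, 51 lower), 109 shared. With no filter on low counts 26 genes were lower. Leaving out 1 library gave 16 to 977 calls, 15 to 318 higher and 1 to 659 lower; the low end came without P15 replicate 1 (12 of the 121 kept) and the high end without P18 replicate 2 (118 kept). The cause of these shifts was not tested, beyond fewer samples in such fits. Lone libraries were taken to vary like the other groups. Size factors of DESeq2 (RLE), plain library size and dropping the fold threshold left the counts within 1.5 times, and plain library size moved the median of all genes from 0.01 to 0.09. Replicate differences were almost uncorrelated across genes between P15 and P18 (r = -0.02) and between P18 and P21 (r = 0.06). Such values cannot show whether libraries of the same replicate number shared a litter or a day, which the labels do not say. With the replicate number as a block 118 genes were called, 89 of them among the 121. Among named genes the sign changed for the log2 fold change of Lifr with library size only (0.0101) and without 1 library (-0.168 to 0.0283), for the log2 fold change of Egr1 without 1 library (-0.621 to 0.0312) and for the log2 fold change of Fgf2 without 1 library (-0.0733 to 3.43). Called members of each list under each fit were counted after seeing the data; reactive Muller glia kept 2 of 14 without either P15 library. The fit had 4 residual degrees of freedom.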

Other observations

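Of the 121 called genes, 28 belonged to a gene list, and the rest held further risers, some of which are named here after their values were seen. Prph, the intermediate filament peripherin of neurons, rose from 11.7 and 8.25 to 63.3 and 57.2 CPM (log2 fold change 2.59 ± 0.21, adjusted p = 0.00232, edgeR), and the calcium-binding protein gene S100a6 from 2.07 and 2.47 to 53.0 and 34.2 CPM (4.26 ± 0.37, adjusted p = 0.00347). Chil1, a chitinase-like protein secreted by reactive astrocytes, rose from 10.3 and 6.98 to 105 and 105 CPM (3.60 ± 0.26, adjusted p = 0.00116). Clu, the secreted chaperone clusterin, rose from 407 and 367 to 1229 and 947 CPM (1.49 ± 0.19, adjusted p = 0.0221, edgeR). All P18 libraries of these 4 genes lay above all P15 libraries, as for every called gene that rose. The eye-growth protease gene Prss56 rose from 23.3 and 19.0 to 117 and 54.8 CPM (2.02 ± 0.34, adjusted p = 0.0492) and stood at 1.91 and 1.92 CPM at P21.

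In 3 further risers, chosen after their values were seen, both rd10 P15 libraries lay below both WT libraries of that age. Rnf13, a ubiquitin ligase gene, had 105 and 99.6 CPM in WT, 47.0 and 40.7 at rd10 P15 and 96.8 and 92.7 at rd10 P18 (log2 fold change from P15 to P18 1.11 ± 0.14, adjusted p = 0.0175, edgeR). Atxn7l3, a subunit of a histone deubiquitinase, had 110 and 104, then 39.0 and 31.1, then 92.0 and 131 CPM (1.67 ± 0.23, adjusted p = 0.0312). Etnppl, an astrocyte enzyme of phosphoethanolamine breakdown, had 15.7 and 18.3, then 1.08 and 1.38, then 6.83 and 5.10 CPM (2.28 ± 0.31, adjusted p = 0.0259), and so stayed below its WT values at P18. Both comparisons share the rd10 P15 libraries, so a low value there enters both, and the WT libraries differ from them in sex-linked counts as well as genotype.

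The chemokine gene Cx3cl1 was split between the P15 replicates, at 24.95 and 147.5 CPM, with 152 and 166 at P18. Hspa1a and Hspa1b, near-identical heat shock genes between which reads can be split, were both called and together had 85.4 and 89.5 CPM at P15 against 171 and 185 at P18.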
